A study of Mus musculus with 6 samples.

Results

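The genes followed here carry iron into cells, store it, send it out again and build it into iron-sulfur clusters. The group of 10 genes was chosen by known function, and its members are the probe sets annotated with a single member symbol, with no expression minimum. Of the 10 genes, 9 had such a probe set, giving 10 member probe sets of 41345 on the array, as Glrx5 had a pair of them. Ftl1, the ferritin light chain, had none of its own, and the probe sets it shares with related loci are given apart. Whole blood was taken from 3 male outbred CD1 mice kept for 14 days in an enriched environment (EE) and from 3 kept for the same time in a standard environment (SE). The labels give an age of 9 weeks, no mouse received an inflammatory insult, and EE enclosures were larger and held a wheel, a nest house and a tunnel. The study kept its mice in groups of 6, and which of the arrayed mice shared a cage is not given in the sources used here. Total RNA of each mouse was hybridized to 1 Affymetrix array, and values are log2 of the robust multiarray average (RMA), the authors' normalization, so a difference of 1 is a 2-fold difference.

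Maturing red cells take up more iron than any other cell of the body, since each needs it for haem. Transferrin-bound iron enters through the transferrin receptor, is reduced and moved out of the endosome, and passes into mitochondria, where it is placed into haem or into iron-sulfur clusters. Surplus iron is held in ferritin or exported by ferroportin. Iron regulatory proteins bind stem-loops in several of these mRNAs and adjust their translation or stability to the iron supply. Reticulocytes, the youngest red cells in blood, still carry such mRNAs, and monocytes, lymphocytes and neutrophils carry some of them as well, so a value from whole blood is a sum over cell types.

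Whole blood was recognizable from its markers. Mean values of at least 100 on the linear scale, the study's expression minimum, were reached by 11 of 12 measured red cell markers, 7 of 11 for neutrophils, 6 of 6 for B cells, 8 of 8 for T cells and 10 of 10 for platelets. One array differed from the rest, that of EE mouse 3. Its mean correlation with them across probe sets was 0.932, against 0.956 to 0.965 for the others, and B cell and T cell markers were low in it, with medians over the markers of -0.68 and -0.36 on the log2 scale after the SE mean was subtracted. Platelet and monocyte markers were higher in it than in any other mouse, with medians of 0.65 and 0.63, and it had 8255 probe sets at 100 or more, against 9027 to 9336. Without this mouse T cell markers went from 0 to 4 of 8 higher in EE (limma, unadjusted p under 0.05). The share of all probe sets higher in EE rose as well, from 1.45% to 3.19%. Member values that turn on a single mouse are given with and without it.

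Over all 10 probe sets the difference between EE and SE mice was small. The median log2 fold change (EE minus SE) over the 9 genes was -0.07, and over all probe sets on the array it was -0.01. With limma and an unadjusted p under 0.05, 1 of the 10 was lower in EE and 0 were higher, where 2.30% of all probe sets were lower and 1.45% higher. None passed an adjusted p of 0.05 in limma, as was true of all 41345 probe sets (lowest adjusted p = 1.000), and none passed the study's added threshold of a 2-fold difference, which 0.172% of all probe sets passed together with that of p. For 8 of the 10 probe sets the 95% interval of the difference lay inside 2-fold in both directions. The exceptions were Slc40a1 and the second probe set of Glrx5. After the filter of the methods, 7 of the 10 remained and 1 was lower, where 3.14% of the probe sets left were lower and 1.46% higher.

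**Figure D1:**
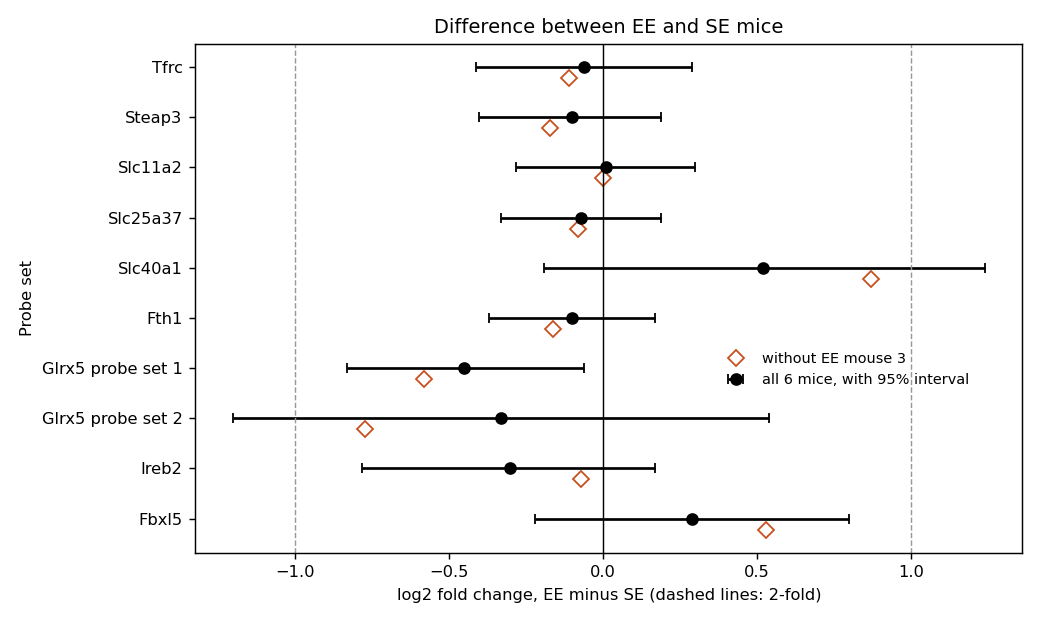
Log2 fold change between EE and SE mice for the 10 iron gene probe sets, with the 95% interval from limma (filled circles, 3 mice against 3) and the value without EE mouse 3 (open diamonds). The interval of the first Glrx5 probe set, -0.83 to -0.06, is the one that lies on a single side of 0. Slc40a1, Fbxl5 and the second Glrx5 probe set move farthest from 0 without EE mouse 3. The first Glrx5 probe set also moves outward, from -0.45 to -0.58, and Ireb2 moves inward, from -0.30 to -0.07.

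The uptake genes differed little. Tfrc encodes the transferrin receptor, which binds iron-loaded transferrin at the cell surface. SE mice 1 to 3 had values of 7.84, 7.49 and 7.50, against 7.64, 7.36 and 7.65 for EE mice 1 to 3. The groups overlapped, with the highest value in an SE mouse and the lowest in an EE mouse. For Tfrc the log2 fold change was -0.06 (limma, standard error 0.15, 95% interval -0.41 to 0.29, unadjusted p = 0.706), and its sign turned when SE mouse 1 or EE mouse 2 was left out. Dividing cells of many kinds also use this receptor. Of 5 measured markers of cell division, 1 was lower in EE and none was higher, beside 2.30% and 1.45% of all probe sets. The 1 was Mki67 (log2 fold change -0.55, standard error 0.19), with every EE mouse below every SE mouse, as in 4.61% of all probe sets. It alone of the 5 had a mean of at least 100 on the linear scale. Mki67 was no longer called without SE mouse 1, EE mouse 1 or EE mouse 2. The summed level of the 5 was 550 to 725 in EE mice and 670 to 1018 in SE mice on the linear scale, and its part in the Tfrc values was not tested.

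Steap3, the ferrireductase that reduces iron in the endosome of red cell precursors, was below the minimum of 100, with a mean that equals 39.1 on the linear scale. It lay at 5.24, 5.32 and 5.47 for SE mice 1 to 3, against 5.24, 5.09 and 5.37 for EE mice 1 to 3, a log2 fold change of -0.10 (standard error 0.13). Slc11a2, the transporter DMT1 that carries the reduced iron out of the endosome, lay at 6.76, 6.53 and 6.43 for SE mice 1 to 3, against 6.59, 6.54 and 6.62 for EE mice 1 to 3. The 3 EE values lay within the range of the SE values. For Slc11a2 the log2 fold change was 0.01 (limma, 95% interval -0.28 to 0.30, unadjusted p = 0.926).

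Slc25a37, or mitoferrin 1, imports iron into the mitochondria of red cell precursors. SE mice had values of 13.60, 13.42 and 13.62, against 13.51, 13.43 and 13.51 for EE mice, and the 6 mice spanned 0.20. Its log2 fold change was -0.07 (limma, 95% interval -0.33 to 0.19, unadjusted p = 0.558). These values lie close to the top of the scale, where the highest value on any array was 14.01, and whether the probe set was near saturation was not tested.

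**Figure D2:**
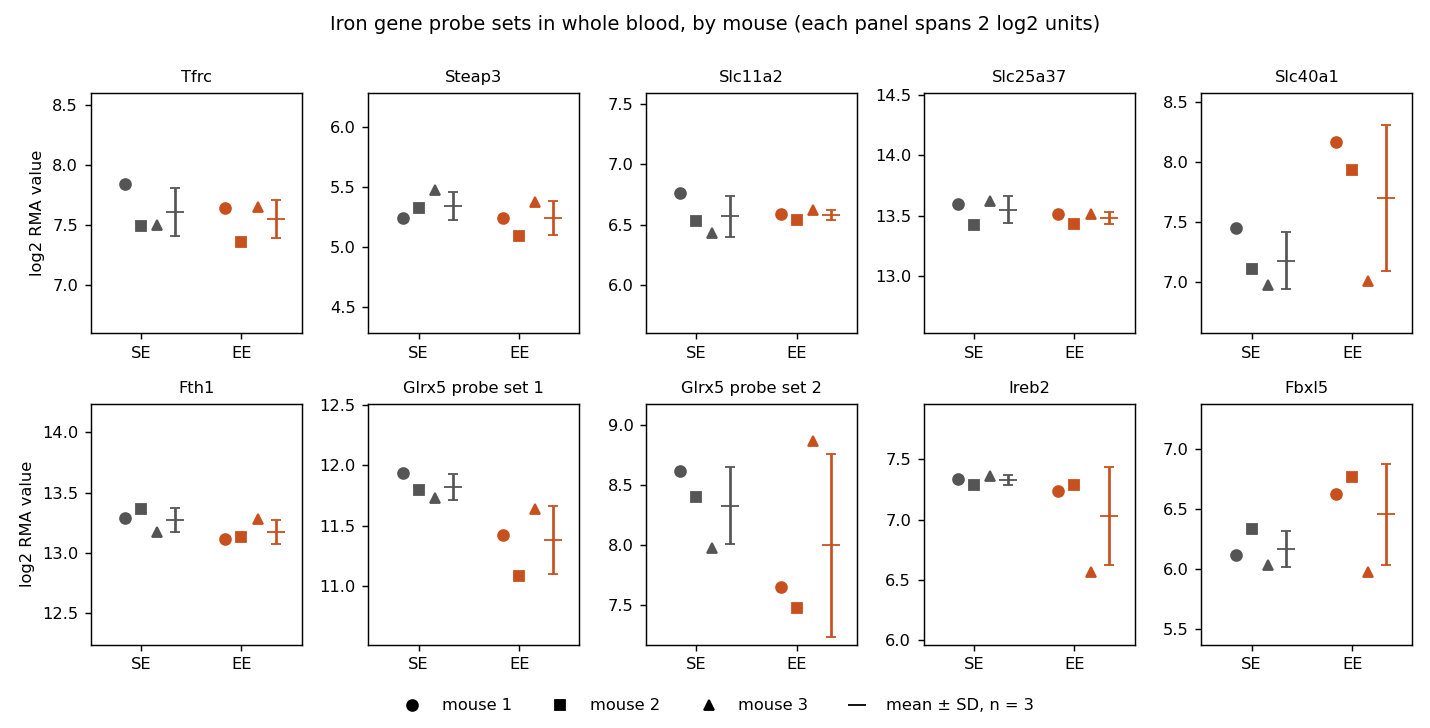
Log2 RMA value of each member probe set in 3 SE mice (grey) and 3 EE mice (orange), with the mouse number as the marker shape and the mean ± SD beside the points; every panel spans the same range. Tfrc, Steap3, Slc11a2, Slc25a37 and Fth1 vary by less than 0.5 over the 6 mice, whereas EE mouse 3 lies apart from EE mice 1 and 2 for Slc40a1, the second Glrx5 probe set, Ireb2 and Fbxl5.

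The ferritin probe sets of high level also showed small differences, in values that lie close to the top of the scale, where saturation was not tested. Fth1 encodes the ferritin heavy chain, the subunit that oxidizes iron on its way into the ferritin shell. It lay at 13.29, 13.36 and 13.17 for SE mice 1 to 3, against 13.11, 13.13 and 13.28 for EE mice 1 to 3. EE mice 1 and 2 were the lowest of the 6, and EE mouse 3 lay among the SE mice. For Fth1 the log2 fold change was -0.10 (limma, standard error 0.12, 95% interval -0.37 to 0.17, unadjusted p = 0.411). For the light chain, which helps iron settle in the core of the shell, 6 probe sets carry the symbol Ftl1 together with 1 or more ferritin light chain copies, Ftl2-ps or Ftl1-ps2. Signal of these probes cannot be assigned to 1 locus, so the values belong to the family. A pair of the 6 held the same value on every array, which leaves 5 distinct patterns. The 3 brightest lay between 13.23 and 13.71 in every mouse, with log2 fold changes of -0.03, -0.03 and -0.05. For the dimmest, SE mice had values of 6.66, 6.37 and 6.66, against 7.42, 6.95 and 6.80 for EE mice. Every EE value was above every SE value, as in 3.76% of all probe sets, and the difference in log2 was 0.49 (limma, standard error 0.19, unadjusted p = 0.0337, adjusted p = 1.000). The other 2 had values of -0.22 and -0.33, so the probe sets of the family disagreed in direction.

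Slc40a1 encodes ferroportin, the known iron exporter of animal cells, which is abundant in macrophages that recycle red cells and is present in red cells themselves. It had the largest positive log2 fold change among the members, 0.52 (limma, standard error 0.30, 95% interval -0.19 to 1.24, unadjusted p = 0.126). SE mice had values of 7.45, 7.11 and 6.98, against 8.17, 7.93 and 7.01 for EE mice. EE mice 1 and 2 lay above every SE mouse, and EE mouse 3 lay between the lower pair of SE mice. Without EE mouse 3 the log2 fold change was 0.87 (limma, unadjusted p = 0.00232), and without EE mouse 1 it was 0.29 (unadjusted p = 0.366). Of 7 tissue macrophage markers, 1 reached a mean of 100. At an unadjusted p under 0.05, 0 were higher or lower in EE, beside 1.45% and 2.30% of all probe sets. With EE mouse 3 left out C1qc was lower (log2 fold change -0.37), beside 3.19% of all probe sets. Their summed level was 284 to 341 in EE mice and 281 to 367 in SE mice on the linear scale. Of 7 measured monocyte markers, 0 were higher or lower with or without EE mouse 3, beside the same shares. T cell markers, like Slc40a1, were higher in EE mice 1 and 2 than in EE mouse 3. Their medians were 0.44, 0.34 and -0.36 in EE mice 1 to 3 after the SE mean was subtracted, against 0.17, -0.15 and 0.04 in SE mice 1 to 3. Summed T cell levels were 3065 to 6355 in EE mice and 3914 to 5098 in SE mice. B cell markers were also lowest in EE mouse 3, with medians of 0.00, 0.05 and -0.68 in EE mice 1 to 3. In SE mice 1 to 3 the B cell medians were -0.32, 0.10 and 0.17, in the opposite order to Slc40a1. The part of any of these cell types in the Slc40a1 values was not tested. RMA gives no values of 0, so no marker was at 0.

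Glrx5 was the member that reached the threshold. It encodes glutaredoxin 5, a mitochondrial protein that passes newly made iron-sulfur clusters to their targets, and loss of it blocks haem synthesis in zebrafish red cells. In the first probe set SE mice 1 to 3 had values of 11.94, 11.80 and 11.73, against 11.42, 11.08 and 11.64 for EE mice 1 to 3. Every EE mouse lay below every SE mouse, with a gap of 0.097 between the nearest mice of the groups. The mean of the EE mice was 11.38 ± 0.28 (SD, n = 3) and that of the SE mice 11.82 ± 0.11 (SD, n = 3). The difference, EE minus SE, was -0.45 (limma, standard error 0.16, unadjusted p = 0.0292, adjusted p = 1.000), or 0.734 of the SE level. An exact permutation test over the 6 mice gave a two-sided p of 0.1, the smallest that 3 against 3 allows. The call was lost without SE mouse 1 (-0.39, limma, unadjusted p = 0.0878), SE mouse 2 (-0.46, unadjusted p = 0.062), EE mouse 1 (-0.47, unadjusted p = 0.0557) or EE mouse 2 (-0.30, unadjusted p = 0.0904), and after a second quantile normalization (-0.38). Over all probe sets, 4.61% had every EE mouse below every SE mouse.

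The second Glrx5 probe set, which is dimmer, lay at 8.62, 8.40 and 7.98 for SE mice 1 to 3, against 7.65, 7.48 and 8.87 for EE mice 1 to 3. EE mice 1 and 2 were the lowest of the 6 here too, but EE mouse 3 was the highest. Its log2 fold change was -0.33 (limma, standard error 0.37, unadjusted p = 0.396), and without EE mouse 3 it was -0.77 (unadjusted p = 0.00893). Without EE mouse 1 or EE mouse 2 it was -0.16 and -0.07, and without SE mouse 1 or SE mouse 3 it was -0.19 and -0.51. In the first probe set EE mouse 3 lay 0.39 above the mean of EE mice 1 and 2, and in the second 1.30 above it. What part of the gene each probe set covers is not given in the sources used here.

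Since Glrx5 was the member past the threshold, the bases before its start are shown, from the RefSeq-based promoter table for GRCm38.p6, plus strand of chr12:105032368-105032617. Capitals mark the pentamer CCAAT, read on either strand (CCAAT or ATTGG).
Glrx5: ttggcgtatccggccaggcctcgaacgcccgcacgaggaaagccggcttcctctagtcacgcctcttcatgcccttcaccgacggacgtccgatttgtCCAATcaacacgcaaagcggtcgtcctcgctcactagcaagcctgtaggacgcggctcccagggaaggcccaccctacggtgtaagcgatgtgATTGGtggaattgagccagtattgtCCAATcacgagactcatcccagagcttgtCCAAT
The 250 bases hold 4 CCAAT pentamers, 3 of them forward and 1 reversed, and the last ends at the base before the start. At least 1 occurs in 33.8% of all 32851 promoter windows of this length and at least 4 in 0.840%. Hexamers of the kind bound by the erythroid factor GATA1 (the letters GATA with A or T before them and A or G after them, on both strands) are not among these letters, against 26.5% of all windows with at least 1. Of the 10 member genes, 6 were in the table, with 11 windows, of which 5 held a CCAAT pentamer and 1, of Steap3, held such a hexamer. These are matches of letters and not measured sites.

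The first Glrx5 probe set followed the red cell markers of the same arrays over the 6 mice. The red cell score of a mouse, the median over 12 red cell markers of the log2 value minus the SE mean, was 0.22, -0.08 and -0.15 for SE mice 1 to 3, against -0.62, -0.81 and -0.35 for EE mice 1 to 3. The 6 mice had the same order by this score as by the first Glrx5 probe set, also within each group. Pearson's r over the 6 mice was 0.97 (exact permutation test, two-sided, p = 0.00139, adjusted p = 0.0139 over the 10 member probe sets) and Spearman's rho was 1.00 (exact permutation p = 0.00278, adjusted p = 0.0278). Without SE mouse 1 and EE mouse 2, the mice farthest from the median score, r was 1.00. The relation is between values of the same arrays after a shared normalization, and no batch is given within which to repeat it. The permutations exchanged mice across the housing groups, and in both measures every EE mouse lay below every SE mouse. The p-values thus include the shared group difference, and a relation within the groups was not tested.

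For the other member probe sets no relation to the score passed the adjustment. Pearson's r was 0.73 for Fth1, 0.72 for the second Glrx5 probe set, 0.62 for Tfrc, 0.57 for Slc25a37, 0.48 for Steap3, 0.36 for Slc11a2 and 0.16 for Ireb2. It was negative for Slc40a1 (-0.63) and Fbxl5 (-0.74). Spearman's rho for these 9 ran from -0.49 to 0.83, and the lowest adjusted p in exact permutation tests was 0.306 for Pearson's r and 0.292 for Spearman's rho. Without the 2 mice farthest from the median score their r ran from -0.87 for Tfrc, whose sign turned, to 0.68 for Fth1. Without EE mouse 3 the second Glrx5 probe set had an r of 0.97 over the remaining 5 mice, which is given as a description.

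**Figure D3:**
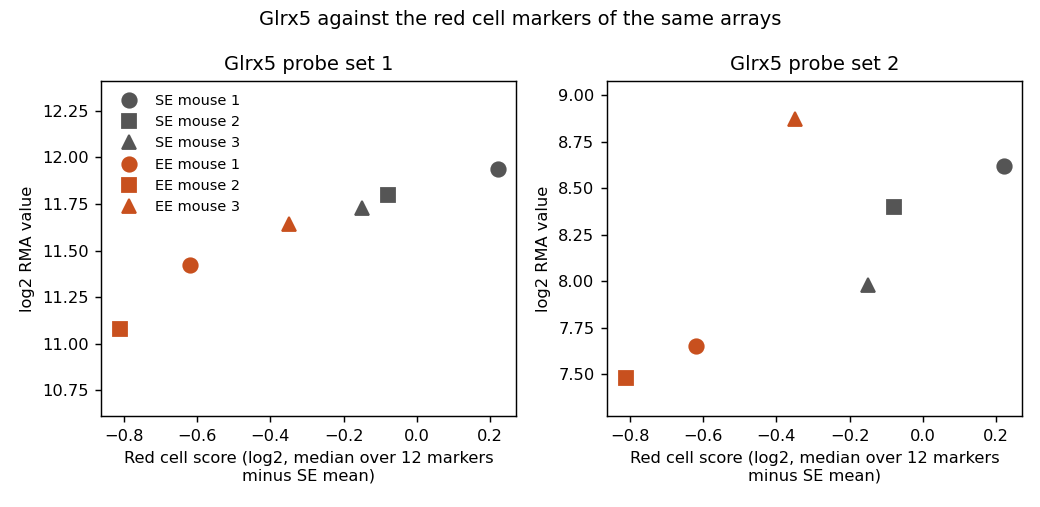
Log2 RMA value of the first (left) and second (right) Glrx5 probe set against the red cell score of the same mouse (log2, median over 12 markers minus the SE mean), for 3 SE mice (grey) and 3 EE mice (orange). In the left panel the 6 mice rise in a single order from EE mouse 2 to SE mouse 1, and in the right panel EE mouse 3 lies above the others.

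The red cell markers were themselves lower in EE mice. Of 12 measured, 9 were lower at an unadjusted p under 0.05 and 0 higher, beside 2.30% and 1.45% of all probe sets, with a median log2 fold change of -0.67, and 6 had every EE mouse below every SE mouse, beside 4.61%. The smallest p were those of Hemgn, Kel and Tmod1, with log2 fold changes of -0.73, -0.77 and -0.74. The count was 5 without SE mouse 1, 6 without EE mouse 1, and 5 with 1 higher without EE mouse 2, and the median ran from -0.53 without SE mouse 1 to -0.72 without EE mouse 3. The summed level of the 12 was 5951 to 8188 in EE mice and 8951 to 11987 in SE mice on the linear scale, and Klf1 was the one marker whose mean was under 100. Neutrophil markers went the other way, with 6 of 11 higher, 0 lower and a median of 0.58 (smallest p for Csf3r, Mmp9 and Mmp8), 4 higher without SE mouse 3, and summed levels of 5807 to 7016 in EE mice and 3686 to 4608 in SE mice. Beside these lists, the -0.45 of Glrx5 was smaller in size than the median of the red cell markers. In whole blood, fewer cells of a type and less RNA per cell cannot be told apart, and whether Glrx5 would differ at an equal red cell signal was not tested.

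The partners of Glrx5 in the mitochondrion were compared as a list, whose genes were chosen by function. Of 18 genes for mitochondrial iron-sulfur cluster assembly, 13 had a probe set of their own. At an unadjusted p under 0.05, 2 of the 13 were lower in EE and 0 higher, beside 2.30% and 1.45% of all probe sets, and 0 passed an adjusted p of 0.05 from limma. The count fell to 1 without SE mouse 1, SE mouse 3, EE mouse 1 or EE mouse 2, and with arrays centred on their probe sets above 100. The median log2 fold change of the 13 was -0.14, and without EE mouse 3 it was 0.05.

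Hscb, the co-chaperone that hands the fresh cluster from its scaffold towards Glrx5, had the lowest p of the list. It lay at 9.27, 9.00 and 8.99 for SE mice 1 to 3, against 8.49, 8.49 and 8.61 for EE mice 1 to 3. Every EE mouse lay below every SE mouse, as in 4.61% of all probe sets. The gap was 0.373, and EE mouse 3 lay with the other EE mice. For Hscb the log2 fold change was -0.55 (limma, standard error 0.12, unadjusted p = 0.00283, adjusted p = 1.000).

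Iscu encodes the scaffold on which clusters are built. It lay at 11.04, 10.78 and 11.25 for SE mice 1 to 3, against 10.43, 10.34 and 10.81 for EE mice 1 to 3. EE mouse 3 lay just above SE mouse 2, and the other EE mice were below all SE mice. For Iscu the log2 fold change was -0.50 (limma, standard error 0.18, unadjusted p = 0.0262). Without EE mouse 3, 4 of the 13 were lower and 0 higher, where 3.19% of all probe sets were lower, and these were Hscb, Iscu, Isca1 and Iba57. Isca1 and Iba57 act together in the late steps of cluster assembly, and their log2 fold changes were -0.33 and -0.41 with all mice and -0.54 and -0.59 without EE mouse 3. The mean of Iba57, 24.8 on the linear scale, was under the minimum. Other genes of the list went the opposite way or stayed near 0, among them Lyrm4, a subunit of the complex that supplies sulfur, at 0.15 and Hspa9, the chaperone partner of Hscb, at -0.02.

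**Figure D4:**
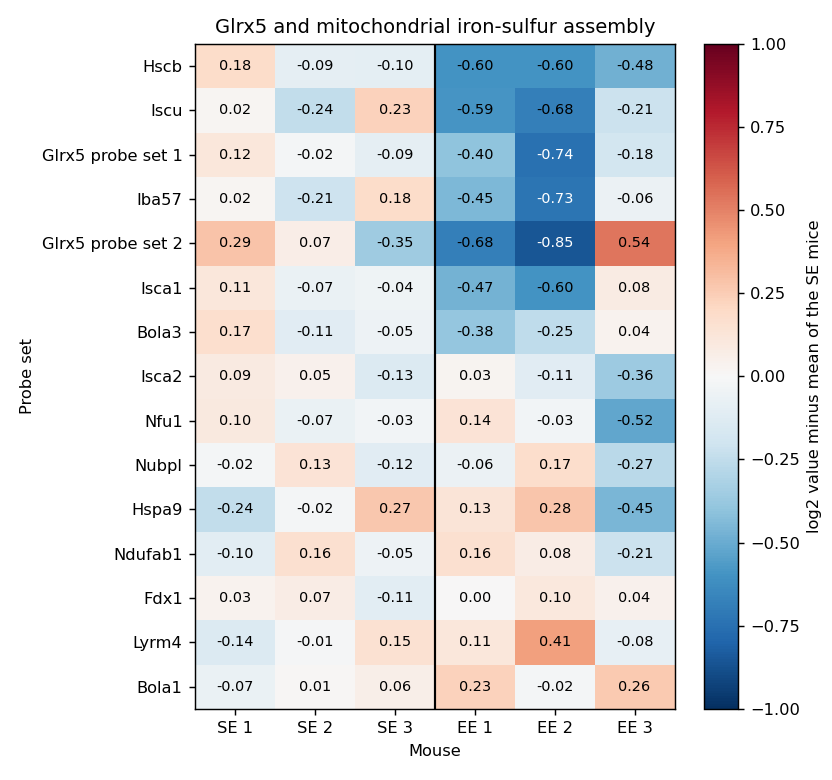
Log2 value relative to the SE average, for both Glrx5 probe sets and the 13 measured genes of mitochondrial iron-sulfur cluster assembly (rows, ordered by log2 fold change) in each of the 6 mice (columns; blue is below and red above the SE mean). Hscb is below all SE mice in each of the 3 EE mice, whereas Isca1, Bola3 and the second Glrx5 probe set are low in EE mice 1 and 2 and not in EE mouse 3.

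In the cytosol a separate machinery makes clusters for proteins outside mitochondria. Of its 11 genes 10 were measured, and 0 were higher or lower, beside 1.45% and 2.30% of all probe sets. Their median log2 fold change was 0.02. The gene with the smallest p was Ciao1, a targeting factor of that machinery, with a log2 fold change of 0.13 (limma, standard error 0.11, unadjusted p = 0.269). The list genes past the threshold, Hscb and Iscu, were in the mitochondrial list. At such shares a list of 10 may well hold no call, and the difference between the lists was not tested. Red cell markers were lower in EE as well, with a median log2 fold change of -0.67. Whether Hscb or Iscu would differ at an equal red cell signal was not tested.

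The regulators of iron supply were Ireb2 and Fbxl5. Ireb2 encodes iron regulatory protein 2, which binds the stem-loops of iron-handling mRNAs when iron is scarce. It lay at 7.34, 7.29 and 7.36 for SE mice 1 to 3, against 7.24, 7.29 and 6.56 for EE mice 1 to 3. Every EE value was below every SE value, as in 4.61% of all probe sets, but by a gap of 0.004. EE mouse 3 was far below the rest. For Ireb2 the log2 fold change was -0.30 (limma, standard error 0.20, unadjusted p = 0.177), and without EE mouse 3 it was -0.07 (unadjusted p = 0.522).

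Fbxl5 encodes the iron-sensing subunit of the ubiquitin ligase that removes iron regulatory protein 2 when iron is plentiful. Its mean equals 79.5 on the linear scale, below the minimum of 100. SE mice had values of 6.12, 6.34 and 6.04, against 6.63, 6.77 and 5.98 for EE mice. EE mice 1 and 2 were the highest of the 6 and EE mouse 3 the lowest. For Fbxl5 the log2 fold change was 0.29 (limma, standard error 0.22, unadjusted p = 0.223), and without EE mouse 3 it was 0.53 (unadjusted p = 0.00708). Without EE mouse 2 it was 0.14 (unadjusted p = 0.563). The T cell and B cell medians of EE mice 1 to 3 given above have EE mouse 3 lowest as well. Among the SE mice the T cell median was lowest in SE mouse 2 (-0.15), where Fbxl5 was highest (6.34). The B cell median was highest in SE mouse 3 (0.17), where Fbxl5 was lowest (6.04). The part of either cell type in the Fbxl5 values was not tested.

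Over the members as a whole, several values depended on EE mouse 3, though it was not the only mouse to move them. Without it, 2 of the 10 probe sets were lower in EE (both of Glrx5) and 2 were higher (Slc40a1 and Fbxl5) in limma at an unadjusted p under 0.05, where 3.19% of all probe sets were lower and 3.19% higher, and 0 probe sets on the array passed an adjusted p of 0.05. With all mice kept but weighted by how well their arrays matched the group means, the same 4 were called, where 3.64% of all probe sets were lower and 2.66% higher. EE mouse 3 was lowest of the 6 mice for 2 member probe sets and highest for 1. EE mouse 2 was lowest for 4, and SE mouse 1 was highest for 3. With EE mouse 2 left out, 0 of the 10 were called. The log2 fold changes were then -0.30 and -0.07 for the Glrx5 probe sets, 0.41 for Slc40a1 and 0.14 for Fbxl5, while Ireb2 moved away from 0, to -0.43. The SD between mice was larger in EE than in SE for 6 of the 10, and the quotient of these SDs, EE over SE, ran from 0.216 for Slc11a2 to 11.1 for Ireb2. The median quotient was 1.78, and over probe sets with a mean of at least 100 it was 1.52.

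Outside the members, the remaining iron genes showed few differences. Of 19 genes for iron transport and its control over the body, 18 were measured, 3 of them at a mean of 100 or more, and 1 was lower and 0 higher at an unadjusted p under 0.05, beside 2.30% and 1.45% of all probe sets. The one was Hfe, a partner of transferrin receptors that is mutated in hereditary haemochromatosis, with a log2 fold change of -0.39 (limma, standard error 0.16, unadjusted p = 0.0418). It lay at 6.19, 5.97 and 5.86 for SE mice 1 to 3, against 5.47, 5.50 and 5.88 for EE mice 1 to 3, all below the minimum of 100. EE mouse 3 overlapped the SE mice. No gene of the list was lower after a second quantile normalization, with arrays centred on their probe sets above 100, with the mouse number as a block, or without SE mouse 1, SE mouse 2, EE mouse 1 or EE mouse 2. A count of 1 higher came with arrays centred on their probe sets above 100, with array weights and with an Entrez ID required but no minimum. It also came without SE mouse 1, EE mouse 2 or EE mouse 3. Of the 6 genes for cytosolic iron handling, 0 were higher or lower, beside 1.45% and 2.30% of all probe sets. All 6 had negative log2 fold changes and the median was -0.14. Herc2, a ubiquitin ligase that acts on the ferritin receptor NCOA4, had the smallest p of them, with a log2 fold change of -0.31 (limma, standard error 0.15, unadjusted p = 0.0846), and Ncoa4 itself, which carries ferritin to the lysosome, had one of -0.34 (standard error 0.17). Of 3 further genes whose mRNAs carry a known iron-responsive stem-loop, only Epas1 had a probe set of its own (log2 fold change 0.01, standard error 0.12).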

How the data were processed

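The authors hybridized total RNA of 6 mice to Affymetrix arrays and normalized them by RMA in the Bioconductor package affy, and the deposited log2 values were used as given. RMA equalizes the arrays, which removes differences in total RNA and can shrink small folds. Limma is listed without a version in the submitters' notes on processing, and the genome build is not given in the sources used here. The array named in the methods is the Mouse Gene 1.0 ST, but probe sets were named from the annotation of the platform of the deposited table. Of 41345 probe sets, 23521 have 1 gene symbol, 1820 several and 16004 none listed. Arrays give no depth, and 3 mice per group limit the precision.

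Every probe set entered a linear model of limma 3.58.1 (R 4.3.3, moderated by eBayes, no covariate), with Benjamini-Hochberg adjustment over all of them. No expression minimum was set, unlike in the methods, whose filter (Entrez ID and a value of at least 100, applied to the mean) was an alternative. Intervals are 95% intervals from the moderated fit. Each array is of its own mouse, and the p-values reflect variation among mice. Summed levels add linear RMA values. A list gene is its single-symbol probe set with the highest mean. Members and lists were chosen with earlier results of these data known. Genes named are every member, the genes of a pathway list with an unadjusted p under 0.05 (otherwise the one with the smallest p) and up to 3 of smallest p from a cell type list. Ncoa4, Isca1, Iba57, Lyrm4, Hspa9, Bola3, Steap4, Slc11a1, Klf1 and C1qc were named after their values were seen. The code was tested on simulated data. Alternatives covered filters, scaling, the variance prior, array weights, the mouse number as a block, folds of linear means and each mouse left out.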

Additional observations from a re-analysis of the deposited data

How the results depend on the processing

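With all 10 member probe sets, 1 was called at an unadjusted p under 0.05. The count was 0 after a second quantile normalization and 4 with array weights, and it ran from 0 to 4 with single mice left out, the 4 being without EE mouse 3. With each array centred on its probe sets above 100, the count was again 1, but Slc40a1 was called (log2 fold change 0.56, limma, unadjusted p = 0.047) and Glrx5 was not (-0.41, unadjusted p = 0.085). With the mouse number as a replicate block it was 2, Glrx5 (limma, unadjusted p = 0.0412) and Slc40a1 (unadjusted p = 0.0431). What the number stands for is not given in the labels. Deviations of same-numbered EE and SE mice from their group means had r of 0.025, -0.038 and -0.034 across probe sets. With 3 mice per group this cannot settle whether they share a batch. The filter of the methods left 7 member probe sets, with 1 call. The median log2 fold change over the members, -0.07 with all mice, moved by less than the spread between mice in every alternative run. That spread, an SD of 0.07, is as large as the median itself. The median ran from -0.11 without SE mouse 2 to -0.03 without EE mouse 2 or with arrays centred on their probe sets above 100. Signs turned for Tfrc without SE mouse 1 (0.06) or EE mouse 2 (0.04), and for Slc11a2 without SE mouse 2 (-0.01), SE mouse 3 (-0.06) or EE mouse 3 (0.00). With single mice left out these values ran from -0.12 to 0.06 for Tfrc and from -0.06 to 0.10 for Slc11a2. The number of members related to the red cell score, 1, was the same with the mean over markers; with any mouse left out it was 0 (from 0 to 0), since 5 mice allow no exact permutation p under 0.00833 and so no adjusted p under 0.05 over 10 relations unless several reach it. Pearson's r of the first Glrx5 probe set then ran from 0.96 to 0.99.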

Other observations

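A pair of iron genes outside the threshold was singled out after the values were seen. Steap4, a metalloreductase that is also found in neutrophils, had values of 5.73, 5.71 and 5.65 for SE mice 1 to 3, against 7.00, 6.03 and 5.85 for EE mice 1 to 3. The EE mice were all above the SE mice, as for 3.76% of all probe sets, with EE mouse 1 far above the others, and the difference in log2 was 0.59 (limma, standard error 0.29, unadjusted p = 0.0749). Without EE mouse 3 it was 0.82 (limma, unadjusted p = 0.0239). Slc11a1, or NRAMP1, which moves iron and other metals out of the phagosome of phagocytes, had values of 7.83, 7.61 and 7.53 for SE mice, against 7.95, 7.82 and 8.39 for EE mice. EE mouse 2 overlapped SE mouse 1, and the log2 fold change of Slc11a1 was 0.40 (limma, standard error 0.18, unadjusted p = 0.0599), and 0.22 without EE mouse 3 (unadjusted p = 0.138). Neutrophil markers were higher in the same EE mice, with scores of 0.69, 0.35 and 0.48 in EE mice 1, 2 and 3 against 0.20, 0.06 and -0.25 in the SE mice. Monocyte markers had scores of 0.05, -0.03 and 0.63 in EE mice 1, 2 and 3, and like Slc11a1 were highest in EE mouse 3. The part of either cell type in these values was not tested.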
